A study of Mus musculus with 6 samples.

Results

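The genes described here encode the chains of the collagens, chosen as every probe set whose single gene symbol reads Col, a number, the letter a and a number. The rule found 82 probe sets for 42 genes among 45101 probe sets and 18193 named genes on the array. The samples were RNA from C3H10T1/2, a mouse embryo line of multipotent mesenchymal cells, from which fat, cartilage, bone and muscle cells can arise in culture. The BMP4 group held 3 samples of cells given 50 ng/ml of BMP4, a secreted bone morphogenetic protein, while they proliferated, and the control group held 3 samples of the same line grown without it. RNA of both groups was taken after confluence, and each sample was measured on 1 single-colour array. The series asks which genes respond to BMP4 in these cells.

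Collagens are matrix proteins in which 3 chains wind into a triple helix. Fibrillar chains form the rope-like fibrils of connective tissue, with types I, III and V in soft matrix and bone and types II and XI in cartilage. Network-forming type IV and the multiplexins XV and XVIII belong to basement membranes, the fibril-associated collagens (FACIT) decorate fibrils, type VI forms beaded filaments around cells, and a few collagens span the cell membrane. Mesenchymal cells secrete fibrillar, beaded and type IV collagens together, while type II and type IX mark chondrocytes.

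Array signals had a 2% trimmed mean of 150 on every array. Median signals were 37.6 to 42.6 on the BMP4 arrays and 35.2 to 37.3 on the control arrays, and 56.0% to 59.0% and 54.4% to 55.7% of probe sets lay above 29.1, the highest signal of the bacterial control probe sets that served as the background level. Of 10 markers fixed for a mesenchymal line all were measured, with no array under a signal of 188.7, and 1 was higher and 2 were lower with BMP4 (0 higher when BMP4 replicate 3 or control replicate 1 was left out, and 1 lower when any array but BMP4 replicate 2 was). Over the array 5.03% of genes tested were higher and 5.66% were lower. The higher marker was Cd44, and the lower were Twist1 and Pdgfra, the latter with a mean of 1815 with BMP4 and 3392 without. Whether the samples of a group came from separate cultures is not stated in the labels; the spread behind every p-value is that between these arrays and may be technical.

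Most collagen genes did not pass the test, and those that did included both higher and lower genes. Calls in both directions fell within 1 class, the basement membrane and multiplexin genes (2 higher and 1 lower). Of the 42 genes, 31 had a probe set bright enough to be tested, and in limma at an adjusted p of 0.05 over all probe sets 6 of them were higher and 3 were lower with BMP4. That is 29.0% of the collagen genes tested, against 10.7% of the 12966 genes tested on the array (5.03% higher and 5.66% lower). By probe set, 16 of 50 were called (32.0%), 9 higher and 7 lower, against 9.12% over the array (4.20% higher and 4.91% lower). Among the 9 higher, a Col9a1 probe set was bright enough to be tested only through its BMP4 arrays. The median log2 change was 0.13 over the 31 collagen genes and 0.03 over all genes. A change of at least 2-fold was called for 3 collagen genes (9.68%) and for 184 genes in all (1.42%). Changes are differences of log2(signal + 16), BMP4 minus control, which understate the change of dim genes, and a gene is given by its brightest tested probe set. In RNA from whole cultures, fewer cells of a type and less RNA per cell cannot be told apart.

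**Figure D1:**
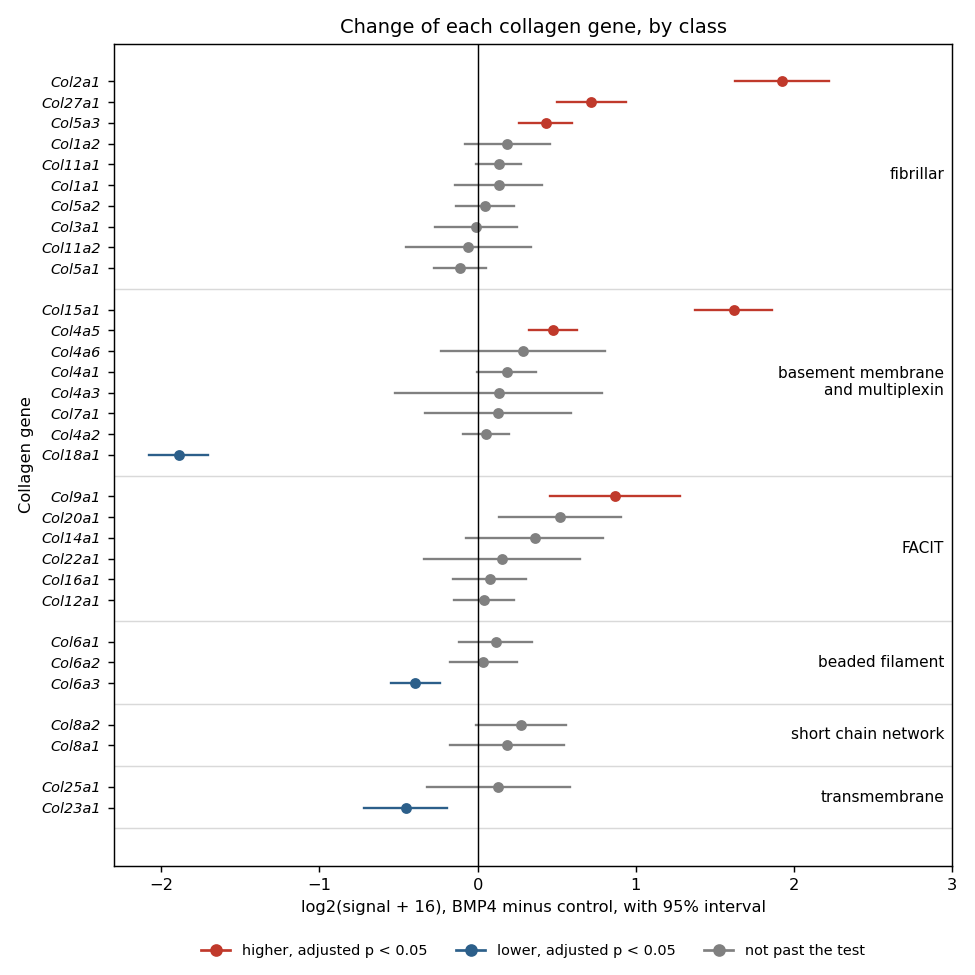
Change of each tested collagen gene (dot) with its 95% interval (line), as log2(signal + 16) in BMP4 minus control over 3 arrays each, grouped by class. Red genes (6) are higher and blue genes (3) lower at a limma adjusted p of 0.05; the largest changes are Col2a1 at 1.92, Col15a1 at 1.62 and Col18a1 at -1.89, and 22 grey genes are not past the test.

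The collagens that mark cartilage gave 3 of the 6 higher genes. Col2a1, the single chain of type II collagen, the main fibril of cartilage, had signals of 517.7, 417.1 and 545.7 with BMP4 and 100, 111.3 and 144.9 without (probe set 1450567_a_at). Every BMP4 array was well above every control array. The means were 494 ± 67.6 and 119 ± 23.4 (SD, n = 3), a change of 1.92 ± 0.13 in log2 (SE; adjusted p = 8.6e-06 in limma), or 3.79-fold.

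Col9a1 encodes a chain of type IX collagen, a FACIT that coats type II fibrils. Its brighter probe set (1421381_a_at) read 123.8, 104.8 and 106.1 with BMP4 and 76.1, 38.6 and 51.4 without, a change of 0.87 ± 0.19 in log2 (SE; adjusted p = 0.0145 in limma). Its other probe set (1428571_at) read 140.7, 111.8 and 176.4 against 16.4, 6.1 and 24.3, 2.35 ± 0.24 in log2 (adjusted p = 0.000107). On that probe set all control signals lay under the background level, so the rise was at least 4.83-fold, and the probe set was bright enough to be tested only through its BMP4 arrays. The groups did not overlap on either probe set, and the size of the rise depended on which was read.

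Col27a1, a fibrillar chain of developing cartilage, read 387.2, 445.7 and 374.3 with BMP4 and 261.9, 208.5 and 244.8 without (1453191_at). The groups did not overlap, and the change was 0.72 ± 0.10 in log2 (SE; adjusted p = 0.000985 in limma). A dimmer probe set (1429549_at) had 352.1, 257.6 and 218.6 against 112, 116.2 and 126.2, 1.10 ± 0.15 in log2 (adjusted p = 0.000749).

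The type XI chains, which copolymerise with type II in cartilage fibrils, did not pass the test. Col11a1 read 1180.2, 1104.9 and 1076.1 with BMP4 and 998, 1022.4 and 1038.5 without. All BMP4 arrays were above the controls on this probe set, yet the log2 change was 0.13 (95% interval -0.01 to 0.28, limma adjusted p = 0.257), and a dimmer Col11a1 probe set pointed the other way at -0.18 (-0.37 to 0.01, adjusted p = 0.25). Col11a2 had 43.1 to 66.5 with BMP4 and 50.1 to 68.5 without, a log2 value of -0.06 (-0.46 to 0.34). Of the 8 genes listed as cartilage collagens 5 were tested, 3 rose and 0 fell, with a median log2 change of 0.72. Of all genes tested on the array 5.03% were higher and 5.66% lower.

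The other 3 cartilage collagens stayed under the brightness needed for a test. Col10a1, the network collagen of hypertrophic chondrocytes, read 7.4, 5.6 and 21.6 with BMP4 and 2.9, 3.6 and 2.7 without. Col9a2 and Col9a3, the partner chains of Col9a1 in type IX collagen, were also dim. Col9a2 read 3.7 to 4 with BMP4 and 1.7 to 3.2 without. The brightest Col9a3 probe set read 22.6, 26.6 and 28.1 against 7.7, 1.3 and 6.8. These groups did not overlap, but all of these signals were under the background level of 29.1, and no fold change is given. Without the filter on dim probe sets that Col9a3 probe set passed the test (limma adjusted p = 0.0216), and it was the 1 member under the filter that did.

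Of 12 chondrocyte markers other than collagens 7 were tested, 4 were higher (Sox9, Sox6, Matn3 and Epyc), 0 were lower and 3 (Acan, Comp and Snorc) did not pass. Over the array 5.03% of genes tested were higher and 5.66% lower. The summed signal of the 7 was 1480 to 1754 on the BMP4 arrays against 769.7 to 776 on the controls. Sox9 was the largest part of that sum, with a mean of 1003 with BMP4 and 398 without. Acan, the large proteoglycan of cartilage, read 31.5 to 57.5 with BMP4 and 40 to 58.4 without, and Hapln1, Matn1 and Chad were under the background level on every array. Without a filter the calls of Matn3 (limma adjusted p = 0.0523) and Sox6 (0.0759) were lost. Sox6 had control signals of 16 to 38.6, around the filter signal of 23.5, and the other settings that lost its call are given with the regulators. With a filter at the 60th percentile 2 of these markers were called higher. The part of such cells in the collagen values was not tested.

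**Figure D2:**
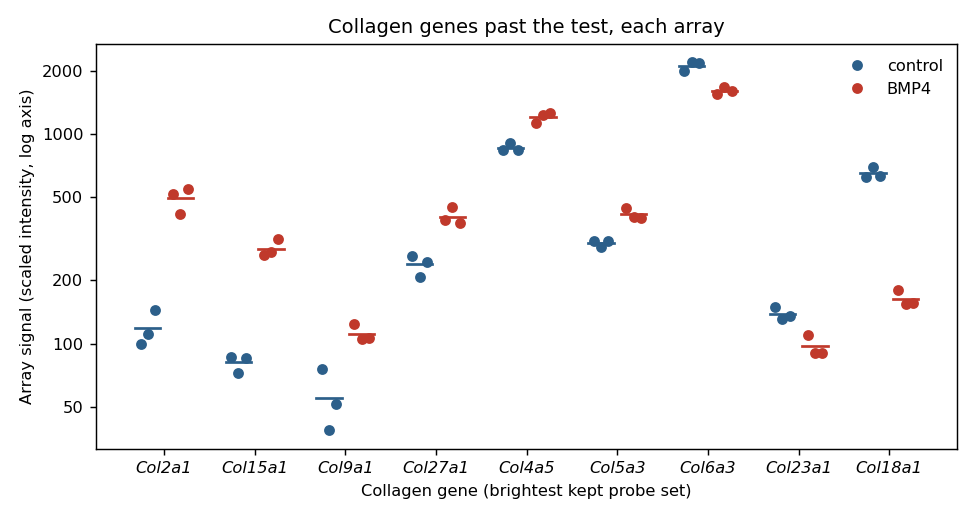
Signals of the 9 collagen genes past the test on each of the 3 control (blue) and 3 BMP4 (red) arrays, with the group mean as a bar, on a log axis. The groups do not overlap for any of the 9; Col2a1 goes from a mean of 119 to 494 and Col18a1 from 649 to 164.

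Among the other fibrillar genes 1 was past the test. Col5a3, a minor chain of type V collagen, read 440.8, 401.4 and 396 with BMP4 and 308.9, 287.6 and 309.9 without (1419703_at). The groups were clearly apart, with a change of 0.43 ± 0.08 in log2 (SE; adjusted p = 0.00446 in limma).

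The chains of the bulk fibrils, types I, III and V, had small changes. Col1a2, a chain of type I collagen and the fibrillar gene with the brightest probe set, read 10007.5, 9987.8 and 8351.2 with BMP4 and 7095.8, 8674.4 and 9159 without. The groups overlapped, and the log2 value was 0.19 (95% interval -0.08 to 0.46, limma adjusted p = 0.401). Its partner Col1a1 gave 0.13 (-0.14 to 0.41, adjusted p = 0.579), with signals of 6941 to 8194 against 5731 to 7957. Col5a2 gave 0.05 (-0.13 to 0.23) and Col5a1 -0.11 (-0.28 to 0.05). On 2 dimmer Col5a1 probe sets all BMP4 arrays lay under the controls, without a call. These gave -0.26 (1416741_at, -0.44 to -0.09, limma adjusted p = 0.0633) and -0.18 (1434479_at, -0.33 to -0.04, adjusted p = 0.126). The first was called with a filter at the 60th percentile (adjusted p = 0.0423) and with median centring (0.0494). Of 10 fibrillar genes tested 3 rose and 0 fell, against 5.03% and 5.66% over the array, with a median log2 change of 0.13. Col24a1, a fibrillar chain, was under the background level on every array.

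Col3a1, the chain of type III collagen, gave different answers on its 2 probe sets. The brighter (1427883_a_at) read 8289.9, 9142.4 and 7199.2 with BMP4 and 7292.2, 8430.5 and 9045.1 without, a log2 value of -0.01 (95% interval -0.27 to 0.25, limma adjusted p = 0.976). The dimmer (1427884_at) read 2195.5, 2270.5 and 1624.6 against 2681.5, 2646 and 2928.8, a log2 change of -0.45 ± 0.12 (SE, adjusted p = 0.0352). With quantile normalization the brighter probe set was also called lower (log2 -0.18, adjusted p = 0.014). The call of the dimmer one was lost without a filter (adjusted p = 0.0968), without the intensity trend (0.135), with a replicate block (0.055), without BMP4 replicate 3 (0.0672) and without control replicate 1 (0.0732), 2 (0.0772) or 3 (0.115).

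Among bright chains without a call, 1 control array was often the lowest. Of the 10 such genes with a mean signal over 1000, 7 had their lowest signal on control replicate 1. The same array had the lowest Gapdh signals (3452 at the 3' end, against 4643 to 5308 on the others) and the lowest beta-actin signals. Without it the log2 value of Col1a1 was 0.00, that of Col1a2 0.08, that of Col6a1 0.03 and that of Col4a1 0.11, and none passed the test.

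**Figure D3:**
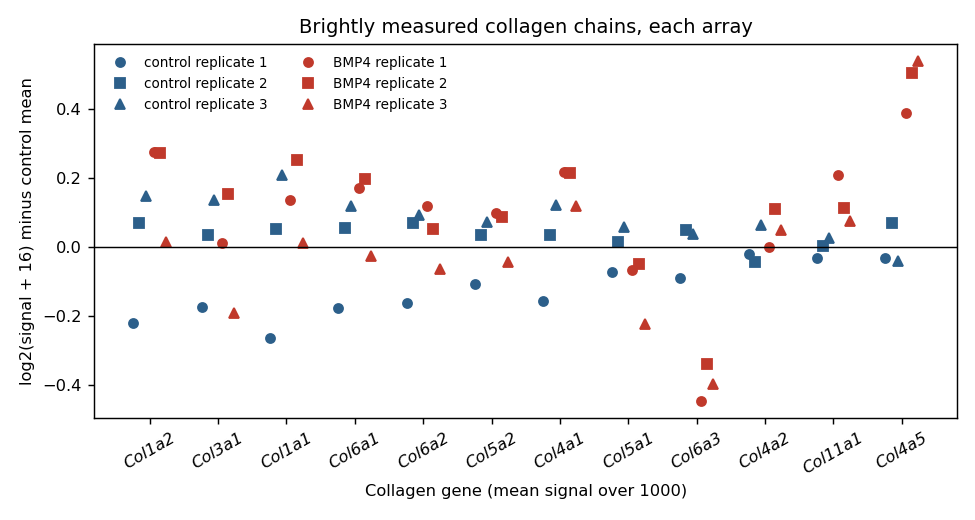
Deviation of each array from the control mean, in log2(signal + 16), for the collagen genes with a mean signal over 1000, 10 without a call and the called Col6a3 and Col4a5 (control replicates blue, BMP4 replicates red, marker shape for the replicate number). Control replicate 1 is the lowest array for 7 of the 10 genes without a call, and all 3 BMP4 arrays lie under the controls for Col6a3 and above them for Col4a5.

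Within the basement membrane class the 2 multiplexins had the largest changes, in opposite directions. Col15a1 encodes type XV collagen, which links basement membranes to the fibrils beneath. It read 264.1, 272.2 and 314.4 with BMP4 and 86.8, 72.8 and 85.1 without (1448755_at), a change of 1.62 ± 0.11 in log2 (SE; adjusted p = 6.81e-06 in limma). Col18a1 encodes type XVIII collagen, whose cleaved end is endostatin, an inhibitor of vessel growth. It read 180.3, 154.3 and 156.3 with BMP4 and 624.5, 691.7 and 631.9 without (1426955_at), -1.89 ± 0.08 in log2 (adjusted p = 4.65e-07). A second Col18a1 probe set (1418237_s_at) gave 123, 136.8 and 132.3 against 451.3, 436.5 and 468, -1.67 ± 0.08 in log2 (adjusted p = 7.2e-07).

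The multiplexins thus changed in opposite directions between the groups, which did not overlap in the difference of the 2 genes. The log2 difference of Col15a1 minus Col18a1 rose by 3.51, from -2.77 ± 0.19 in control to 0.74 ± 0.21 with BMP4 (SD, n = 3; exact permutation test, two-sided, p = 0.1, adjusted p = 0.2 over 8 chain pairs). That p is the smallest that 3 arrays against 3 allow, so no chain pair could pass the test.

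The stretches before the start sites of the multiplexins and of the cartilage collagens Col9a1 and Col27a1 are shown because these genes moved most among those with a start site window to show. Each is the 250 bases upstream of a RefSeq start site in GRCm38.p6, 5′ to 3′ on the gene's strand, and capitals mark GGGCGG on either strand, the GC box bound by Sp factors.
Col15a1, chr4:47207762-47208011, plus strand: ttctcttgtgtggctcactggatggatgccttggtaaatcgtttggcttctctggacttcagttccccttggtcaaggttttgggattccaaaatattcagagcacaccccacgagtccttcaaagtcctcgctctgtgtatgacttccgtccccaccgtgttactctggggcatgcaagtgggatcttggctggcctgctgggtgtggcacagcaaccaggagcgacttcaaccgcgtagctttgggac
Col18a1, chr10:77166531-77166780, minus strand: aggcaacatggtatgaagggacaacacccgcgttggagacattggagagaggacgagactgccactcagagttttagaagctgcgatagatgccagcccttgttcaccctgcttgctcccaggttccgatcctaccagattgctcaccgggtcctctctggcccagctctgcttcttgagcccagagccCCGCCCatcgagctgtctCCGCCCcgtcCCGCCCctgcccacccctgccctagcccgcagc
Col18a1, chr10:77113706-77113955, minus strand: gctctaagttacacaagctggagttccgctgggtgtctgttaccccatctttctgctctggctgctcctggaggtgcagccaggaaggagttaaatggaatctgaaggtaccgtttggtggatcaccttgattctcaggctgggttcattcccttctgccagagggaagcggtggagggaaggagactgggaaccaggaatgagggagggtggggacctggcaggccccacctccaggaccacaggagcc
Col9a1, chr1:24177360-24177609, plus strand: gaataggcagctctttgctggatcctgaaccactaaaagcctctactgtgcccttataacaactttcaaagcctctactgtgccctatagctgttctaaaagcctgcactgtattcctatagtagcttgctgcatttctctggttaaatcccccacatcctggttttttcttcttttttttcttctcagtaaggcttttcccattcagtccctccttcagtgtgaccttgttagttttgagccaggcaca
Col9a1, chr1:24194953-24195202, plus strand: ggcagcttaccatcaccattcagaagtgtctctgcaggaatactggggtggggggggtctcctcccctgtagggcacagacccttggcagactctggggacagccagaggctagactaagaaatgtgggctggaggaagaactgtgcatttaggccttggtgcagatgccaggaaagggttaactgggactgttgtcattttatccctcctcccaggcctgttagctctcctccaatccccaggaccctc
Col27a1, chr4:63215162-63215411, plus strand: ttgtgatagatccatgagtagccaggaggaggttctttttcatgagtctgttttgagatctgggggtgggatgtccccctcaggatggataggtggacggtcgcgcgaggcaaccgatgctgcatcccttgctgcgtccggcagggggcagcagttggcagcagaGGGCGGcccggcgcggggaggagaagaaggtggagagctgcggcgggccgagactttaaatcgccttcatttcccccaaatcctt

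The Col18a1 window at the higher coordinate, the upstream start of this minus-strand gene, held 3 GC boxes, at 61, 43 and 33 bases before the start, and the Col27a1 window held 1, at 85 bases. The windows of Col15a1, of the other Col18a1 start and of both Col9a1 starts held none. The Col9a1 windows held 0 CpG dinucleotides, the Col15a1 window 8, the Col18a1 windows 12 and 3 and the Col27a1 window 15. Motifs were searched on both strands, and matches of GGGCGG with matches of GGCGCC can overlap. Over the 36 windows of the 33 collagen genes that had one, GGGCGG was present in 58.3%, against 32.7% of all 32851 windows. TATAAA was in 13.9% against 12.4%, GGCGCC in 11.1% against 9.59%, ACAAAG in 8.33% against 16.5% and AACAAT in 2.78% against 9.42%. The median share of G and C bases was 59.0% over the collagen windows and 52.4% over all windows. Its part in these motif shares was not tested, and the windows of Col6a2 overlapped each other. ACAAAG and AACAAT resemble the core that Sox factors bind, and neither was in the 6 windows shown. The signals do not say which start site was in use.

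Of the type IV collagen chains, which form the network of the basement membrane, Col4a5 passed the test. It read 1129.8, 1227.6 and 1257.1 with BMP4 and 840.9, 904.3 and 836.3 without (1425476_at), groups that did not overlap, with a change of 0.48 ± 0.07 in log2 (SE; adjusted p = 0.0013 in limma). Its dimmer probe set gave 0.40 ± 0.08 (adjusted p = 0.00926). Median centring took that call away (adjusted p = 0.085), as did dropping the intensity trend (0.0687). Col4a1 and Col4a2, the chains of the common type IV trimer, did not pass, and whether their change differed from that of Col4a5 was not tested. Col4a1, the brightest of this class, read 2897.9, 2892.7 and 2703.5 with BMP4 and 2232, 2551.4 and 2708 without, with overlapping groups and a log2 value of 0.18 (95% interval -0.00 to 0.37, adjusted p = 0.23). Col4a2 gave 0.05 (-0.09 to 0.20, adjusted p = 0.681).

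The remaining basement membrane genes were near background. Col4a6, which lies next to Col4a5 in the genome, read 36.2 to 80.3 with BMP4 and 33.1 to 51.2 without, a log2 value of 0.28 (95% interval -0.23 to 0.80, limma adjusted p = 0.522). Col4a3 gave 0.13 (-0.52 to 0.79) and Col7a1, the anchoring fibril chain, 0.13 (-0.33 to 0.59). Col4a4 was under the background level on every array. Of 8 genes of the class tested 2 rose and 1 fell, against 5.03% and 5.66% over the array, with a median of 0.16.

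Among FACIT genes Col9a1 was the only 1 of 6 tested to pass, and the class median was 0.26. Over the array 10.7% of genes tested were called. Col12a1, a FACIT of tendon and fibrous tissue and the brightest of the class, read 927.5, 880.2 and 841.9 with BMP4 and 941.9, 886.7 and 756 without, overlapping groups with a log2 value of 0.04 (95% interval -0.15 to 0.23, limma adjusted p = 0.833). Col16a1 gave 0.08 (-0.15 to 0.31). Col20a1 had 56.6, 51.9 and 69.6 against 43.8, 31.5 and 34.1, a log2 value of 0.52 (0.14 to 0.91) that missed the threshold (adjusted p = 0.0966), while 2 dimmer probe sets gave 0.37 and -0.06. Col14a1 (0.36, -0.07 to 0.79) and Col22a1 (0.15, -0.34 to 0.64) were close to background. Since the FACIT median rests on these dim genes, it was 0.08 with a filter at the 60th percentile.

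Type VI collagen, the beaded filament around mesenchymal cells, changed in 1 of its 3 tested chains, against 10.7% of genes called over the array. Col6a3, the long chain, read 1549.7, 1667.9 and 1604.3 with BMP4 and 1987.1, 2190.4 and 2172.6 without (1424131_at), groups that did not overlap, with a change of -0.39 ± 0.07 in log2 (SE; adjusted p = 0.00484 in limma). This call was lost without the intensity trend (adjusted p = 0.0516). Col6a1, the brightest of the class, read 6431.5, 6553.3 and 5617.3 against 5058.4, 5943.4 and 6202, a log2 value of 0.11 (95% interval -0.11 to 0.34, adjusted p = 0.565). Col6a2, its neighbour in the genome, gave 0.04 (-0.17 to 0.25, adjusted p = 0.868). The log2 difference of Col6a1 minus Col6a3 was higher by 0.51 with BMP4, at 1.93 ± 0.12 against 1.43 ± 0.08 (SD, n = 3; exact permutation test, two-sided, p = 0.1, the smallest possible, adjusted p = 0.2).

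The other chain pairs lay closer together. Col1a1 and Col1a2 differed in their log2 change by -0.06 (exact permutation p = 0.5), Col4a1 and Col4a2 by 0.13 (p = 0.2), Col6a1 and Col6a2 by 0.08 (p = 0.1) and Col5a1 and Col5a2 by -0.16 (p = 0.1). The pairs Col8a1 with Col8a2 (log2 -0.09, exact permutation p = 0.6) and Col11a1 with Col11a2 (0.19, exact p = 0.4) overlapped between groups. The Col9a1 pairs could not be measured because Col9a2 and Col9a3 were not tested.

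Col8a2 and Col8a1, the short network chains of type VIII collagen known from cornea and vessel walls, did not pass. Col8a2 read 209.2, 165.3 and 166.5 with BMP4 and 158.6, 121.6 and 159.4 without, a log2 value of 0.27 (95% interval -0.01 to 0.56, limma adjusted p = 0.244), although its groups did not overlap. Over the 50 collagen probe sets tested the groups did not overlap at 22, and over all 27022 probe sets tested at 28.2%. Col8a1 gave 0.18 (-0.18 to 0.54).

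Of the transmembrane collagens Col23a1 was lower. It read 110.1, 90.4 and 90.4 with BMP4 and 149.7, 130.5 and 135.5 without (1429209_at), a change of -0.46 ± 0.12 in log2 (SE; adjusted p = 0.0385 in limma). Its other probe sets also had every BMP4 array under every control, with log2 changes of -0.66 ± 0.13 (1429210_at, adjusted p = 0.00987) and -0.49 ± 0.13 (1440911_at, adjusted p = 0.0429). The calls of the brightest and of 1440911_at were lost without a filter (adjusted p = 0.0645 and 0.0789), without the intensity trend (0.0613 and 0.076), with a replicate block (0.0515 and 0.0547), without BMP4 replicate 2 (0.109 and 0.116) or 3 (0.103 and 0.123), and without control replicate 1 (0.139 and 0.134), 2 (0.0814 and 0.118) or 3 (0.0896 and 0.0922). That of 1429210_at was lost only without control replicate 1 (adjusted p = 0.0505). Col25a1, found in brain, read 26.9 to 40.8 with BMP4 and 23.2 to 39.8 without, and Col13a1 and Col17a1 were under the background level on every array.

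In all, 32 of the 82 probe sets were too dim for a test, and 11 genes had no other probe set. Beside those named these genes were Col19a1, Col26a1, Col6a4 and Col6a5. The highest signal of any untested probe set on any array was 56.3, and 5 exceeded the background level of 29.1 on at least 1 array. Of the 32 the groups did not overlap at 6, namely Col10a1, Col9a2, 2 probe sets of Col9a3, and 1 each of Col20a1 and Col19a1, of which Col19a1 was the 1 lower with BMP4. The share over all untested probe sets of the array was not counted, so nothing is read from these 6.

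Where a gene had several tested probe sets, the called genes gave the same direction on each of them. This held for Col9a1, Col27a1, Col4a5, Col18a1 and Col23a1, while Col2a1, Col15a1, Col5a3 and Col6a3 had a single tested probe set. For Col9a1 the dimmer probe set was tested only through its BMP4 arrays, so its direction is no separate support. Among genes whose brightest probe set was not called, Col11a1, Col5a2, Col1a2 and Col20a1 had a dimmer probe set of opposite sign, none of them past the test. For Col5a2 the dimmer probe set gave -0.24 (95% interval -0.43 to -0.06, limma adjusted p = 0.112), and with median centring it was called (adjusted p = 0.027). The changes of the probe sets of Col3a1 differed by 0.44, those of Col9a1 by -1.49 and those of Col27a1 by -0.38, with no overlap between groups (exact permutation p = 0.1 each, the smallest possible, adjusted p = 0.271 over 19 probe set pairs, a comparison chosen after the values were seen).

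**Figure D4:**
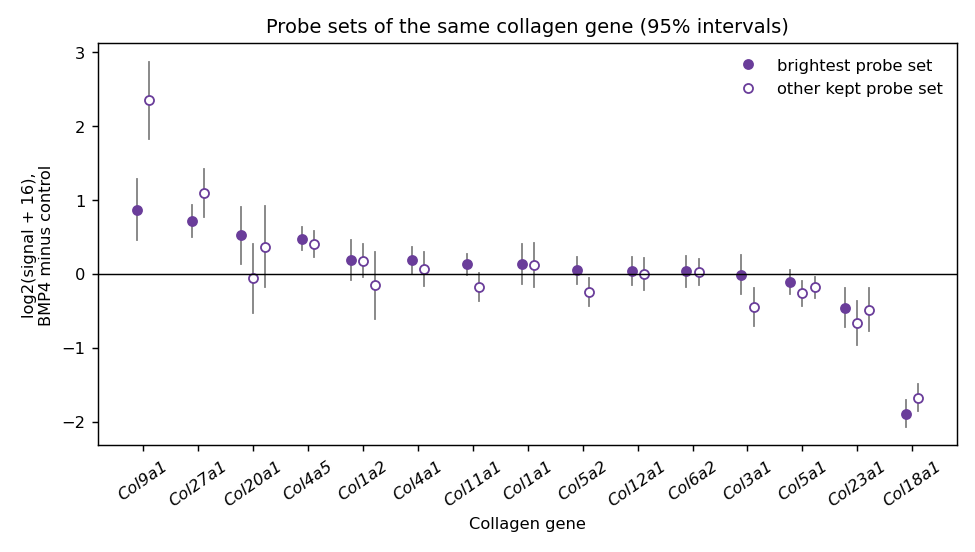
Log2 change with 95% interval of every tested probe set of the 15 collagen genes that had at least 2, filled for the brightest and open for the others, BMP4 minus control over 3 arrays each. The probe sets of Col9a1 read 0.87 and 2.35 and those of Col3a1 -0.01 and -0.45, while Col18a1 is low on both.

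Of 21 tested genes of collagen synthesis and secretion 1 was higher and 2 were lower, with a median log2 value of -0.02. Over the whole array 10.7% of genes were called, and 3 of 21 is close to that share. These counts use the brightest probe set of a gene. A dimmer probe set was called for P4ha1 (-0.49, limma adjusted p = 0.00118) and for P3h1 (0.27, adjusted p = 0.0273). Their brightest probe sets gave -0.21 (adjusted p = 0.154) and 0.25 (adjusted p = 0.0533). P3h2, a prolyl 3-hydroxylase that acts on type IV collagen, went from 89.5 ± 6.94 to 246 ± 34.8 (SD, n = 3), with 222.2 to 286.3 on the BMP4 arrays and 83 to 96.8 on the controls, a change of 1.31 ± 0.12 in log2 (SE; adjusted p = 4.9e-05 in limma). P4ha3, a catalytic subunit of prolyl 4-hydroxylase, was lower (-0.61, adjusted p = 0.0338), as was P3h4, a partner of the lysyl hydroxylase complex (-0.49, adjusted p = 0.0211). Serpinh1, the collagen chaperone, gave 0.03 (adjusted p = 0.881); it was picked as an example with its value known. The P4ha3 call was lost without a filter (adjusted p = 0.0756), without the trend (0.0647), and without BMP4 replicate 1 (0.0715) or 2 (0.102) or control replicate 1 (0.133) or 3 (0.112). That of P3h4 was lost without a filter (0.0663), without the trend (0.108) and without control replicate 2 (0.0786) or 3 (0.0696).

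Among 8 tested genes of procollagen processing and cross-linking 1 was higher and 1 lower, with a median of 0.09. The shares over the array were 5.03% higher and 5.66% lower. Loxl4, a lysyl oxidase that cross-links collagen, had 220.1 to 279.1 with BMP4 and 115.9 to 155.8 without, a change of 0.85 ± 0.12 in log2 (SE; adjusted p = 0.0013 in limma), and 0.55 on another probe set (adjusted p = 0.0135). Bmp1, the protease that trims the C-terminal propeptide of fibrillar collagens, had 309.6 to 365.8 against 444.5 to 532.9, -0.47 ± 0.09 in log2 (adjusted p = 0.00727). A dimmer Bmp1 probe set gave -0.70 (adjusted p = 0.000989) and the dimmest -0.22 (adjusted p = 0.682), and the first call was lost without the trend (adjusted p = 0.0588).

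Of 11 tested genes of collagen breakdown and uptake 1 was higher and 2 were lower, with a median of 0.03. A dimmer Mmp2 probe set was called higher (0.29, limma adjusted p = 0.0338), while its brightest gave 0.20 without a call (adjusted p = 0.211). Genes called over the array were 10.7% (5.03% higher and 5.66% lower). Mmp13, a collagenase, read 110.5 to 120.6 without BMP4 and 1.7 to 7.1 with it. The BMP4 signals were under the background level, so the fall was at least 3.94-fold (limma adjusted p = 6.22e-06), and Mmp13 was bright enough to be tested only through its control arrays. With a pseudocount of 1 or a filter at the 60th percentile it was not tested, and the list then had 1 lower gene. Mrc2, the endocytic receptor that takes up cleaved collagen, had 751.7 to 790.7 against 1061 to 1165, a log2 change of -0.52 ± 0.07 (SE, adjusted p = 0.000489). Pepd, which splits proline dipeptides from collagen, was higher (0.28, adjusted p = 0.0437). Its call was lost with median centring (adjusted p = 0.267), without a filter (0.0585), without the trend (0.121), with a replicate block (0.0827) and without any 1 array but BMP4 replicate 1 (0.0933 to 0.142).

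Of 5 tested collagen receptors 1 was higher and 2 were lower, with a median of -0.08, against 5.03% higher and 5.66% lower over the array. Ddr1, a receptor kinase for collagen, had 375.7 to 466.4 with BMP4 and 680.7 to 730 without, a change of -0.66 ± 0.09 in log2 (SE; adjusted p = 0.000759 in limma). Its 6 dimmer probe sets did not move together, from -0.69 (adjusted p = 0.32) to 0.13 (adjusted p = 0.635), and 1 of them was called (-0.39, adjusted p = 0.014). Ddr2, its relative for fibrillar collagens in mesenchyme, was lower on both probe sets (-0.34 and -0.36, adjusted p = 0.0203 and 0.0163). The integrin subunit Itga1 was higher (0.62, adjusted p = 0.0267). Leaving out BMP4 replicate 1 or 3 or control replicate 2 or 3 lost the call of Ddr2 (adjusted p = 0.0516, 0.0774, 0.0696 and 0.0781), as did no filter (0.0502) or no trend (0.0994). The call of Itga1 was lost without a filter (0.0665), with a replicate block (0.0596) and without any 1 array but BMP4 replicate 3 (0.0501 to 0.0897).

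Of 16 tested regulators of collagen genes 6 were higher and 2 were lower, against 5.03% higher and 5.66% lower over the array. The median was 0.10, and under the alternatives 4 to 6 were called higher and 1 to 3 lower. Sox9, the factor that switches on Col2a1, Col9a1 and Col11a2 in chondrocytes, went from 398 ± 10.8 to 1003 ± 120 (SD, n = 3), a change of 1.29 ± 0.09 in log2 (SE; adjusted p = 6.52e-06 in limma), with 1.26 on a second probe set and -0.10 on the dimmest, near background. Ccn2, a matricellular protein induced by TGF-beta, rose by 1.28 (adjusted p = 3.86e-05). Sox6, a partner of Sox9, was higher by 1.03 (adjusted p = 0.0217) from control signals of 16 to 38.6. The other higher regulators were Tgfb2 (0.93), Tgfb1 (0.65, control signals of 20.7 to 30.1) and Tgfbi (0.36). The Tgfb1 call was lost without each array in turn (limma adjusted p = 0.0664 to 0.153) and without a filter (0.119). A replicate block (0.088) and the other normalizations (0.074 to 0.0788) also lost it. That of Tgfbi was lost with median centring (0.0633) and without the trend (0.0681). The 2 lower regulators were Smad3 and Twist1. The Twist1 call was lost without a filter (adjusted p = 0.107), without the trend (0.143) and with a replicate block (0.0574). Quantile normalization (0.0593) and cyclic loess (0.0533) also lost it. So did leaving out BMP4 replicate 1 (0.0752) or 3 (0.0593) or control replicate 1 (0.155), 2 (0.122) or 3 (0.0569). The Sox6 call was lost without a filter (adjusted p = 0.0759), without the trend (0.0579) and without BMP4 replicate 1 (0.0715) or 3 (0.0684) or control replicate 1 (0.086) or 3 (0.0774).

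**Figure D5:**
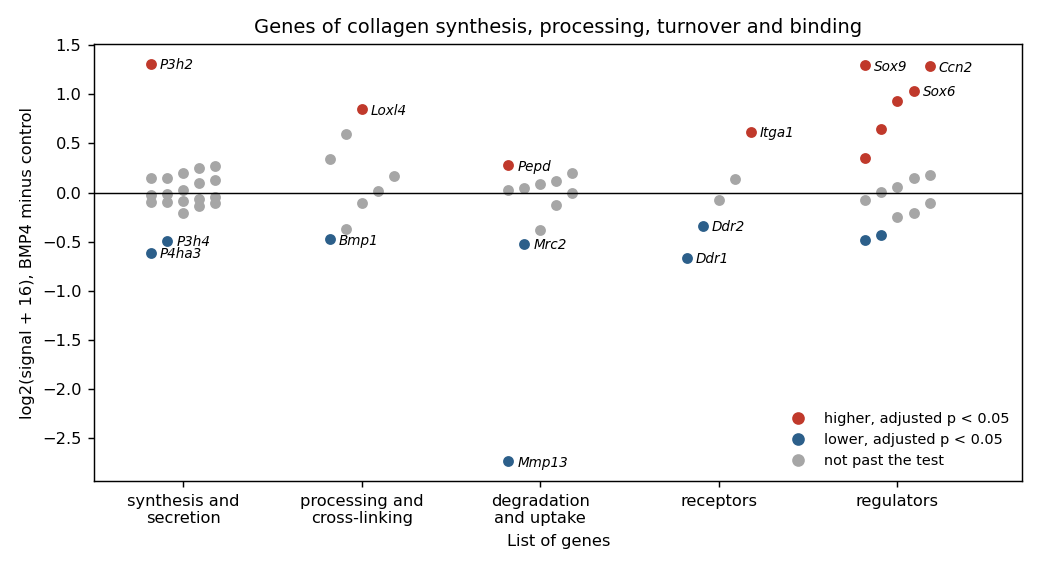
Log2 change (BMP4 minus control, 3 arrays each) of every tested gene in 5 lists of collagen-related genes, with red for higher and blue for lower at a limma adjusted p of 0.05. Most genes of synthesis and secretion lie near 0, P3h2 at 1.31 apart from them, and Mmp13 at -2.73 lies lowest, with BMP4 signals under background.

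Markers of other lineages were read beside the collagens. Their counts stand against 10.7% of genes called over the array (5.03% higher and 5.66% lower). Of 7 tested adipocyte markers 5 were higher and 1, Lpl, was lower (0 were lower once BMP4 replicate 3 or either of control replicates 1 and 3 was left out; summed signal 2340 to 2370 with BMP4 and 1281 to 1318 without), with Cidec and Lep under the background level on every array. Among the higher, Adipoq had control signals of 12.6 to 22.9, all under background. It was bright enough to be tested only through its BMP4 arrays. Of 4 osteoblast markers 0 were higher and 1, Phex, was lower (455.8 to 585.8 against 948.7 to 1035, with Dmp1 under background). The lower sum came from Phex, with a mean of 355 with BMP4 and 809 without. Alpl (77 and 80.6), Ibsp (35.7 and 27.9) and Sp7 (62.7 and 59.9) did not pass. Of 4 endothelial markers 0 were higher and 1, Tek, was lower (141.9 to 240.7 against 229 to 253.3), a count that became 0 by the same omissions, and Pecam1, Vwf and Tie1 were under the background level on every array. Macrophage markers (5 tested, 436.5 to 597.7 against 427 to 441.9) and epithelial markers (6 tested, 412.6 to 672.8 against 518.4 to 625.1) had 0 calls in limma (lowest unadjusted p 0.0103 for Lyz2 and 0.129 for Krt14), with Ptprc, Itgam and Fcgr3, and Cdh1, Krt18 and Esrp1, under background on every array. The part of adipocyte-like cells in the collagen values was not tested.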

How the data were processed

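Per the submitters' processing notes, GCOS 1.3 turned each array's scan into the deposited signal intensity of a probe set, on a linear scale. How it was scaled and background-corrected is not given here. Since all arrays share 1 trimmed mean, a change common to most transcripts is hidden. The table has no detection calls, so 27 bacterial control probe sets set the background level of 29.1. Of 45101 probe sets 34958 had 1 symbol in the platform annotation and 932 had several; 9211 were unnamed here.

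The 64 control probe sets were left out and 16 was added before log2. Probe sets with a mean above the 40th percentile (a signal of 23.5) were tested, 27022 in all, with limma 3.58.1 in R 4.3.3 (lmFit, eBayes with intensity trend, two-sided) and Benjamini-Hochberg adjustment over all of them. A gene was represented by its brightest tested probe set with 1 symbol. Groups and replicate numbers come from the titles. The members and gene lists were chosen with earlier results of these data known, so lists have counts and medians and no test. Values of each array are given for called collagen genes and the brightest gene of each class, and up to 3 called genes by size of change are named per pathway list. Further members are given by range. Outside this rule, the marker genes named, P3h1, P4ha1, Mmp2, Tgfb1, Tgfb2, Tgfbi, Smad3, Twist1, Serpinh1, Gapdh and beta-actin were named after their values were seen. Same-numbered arrays did not deviate together (correlations 0.01, 0.00 and -0.07), so the numbers were not used as pairs. On simulated data the fit recovered 36% of 1.5-fold changes, 84% of 2-fold, 84% of 3-fold and 94% of 4-fold changes, with 3 false calls. Genes without a call can thus hold small changes. Upstream windows are RefSeq's (GRCm38.p6), matched by symbol for 33 of 42 genes. Alternatives were other pseudocounts, filters, normalizations, variance models, probe set choices, a replicate block and leaving out each array.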

Additional observations from a re-analysis of the deposited data

How the results depend on the processing

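The 6 higher collagen genes (Col2a1, Col15a1, Col9a1, Col27a1, Col4a5 and Col5a3) were called under each of the 19 alternatives, and no filter added Col9a3. The number of lower collagen genes was 3, with 1 without the intensity trend, 2 without a filter and 4 with quantile normalization. The number of lower collagen probe sets, 7, became 4 without a filter, 3 without the trend and 4 with a replicate block. It was 8 with quantile normalization or a filter at the 60th percentile, and 9 with median centring. Probe sets called over the array numbered 2464, and 1422 without the trend. Leaving out 1 array gave 1622 to 1996 probe sets over the array, 3 to 7 lower and 9 to 9 higher collagen probe sets, and 2 to 3 lower and 6 to 6 higher collagen genes; the lowest counts came without control replicate 2 (1622) and control replicate 1 (3). Of 580 values of single collagen genes under alternatives, 9 lost a call (8 of Col23a1 and 1 of Col6a3), 1 gained it (Col3a1) and no called value turned its sign. Median centring moved the median of all probe sets by -0.09 and the share of higher calls from 46.1% to 25.1%. The replicate block gave 6 higher and 2 lower collagen genes and 2090 calls in all. The cause of these differences was not tested. With 3 arrays a group every value has limited precision, and genes near a signal of 29.1 cannot be told from background.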
